A study of Mus musculus with 9 samples.

Results

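The levels of 7 related miRNAs were followed in the serum of healthy mice: miR-10a-5p and miR-10b-5p, miR-99a-5p, miR-99b-5p and miR-100-5p, and miR-125a-5p and miR-125b-5p. They were chosen by identity, as the rows carrying their miRBase identifiers (MIMAT0000648, MIMAT0000208, MIMAT0000131, MIMAT0000132, MIMAT0000655, MIMAT0000135 and MIMAT0000136 in this order), and are 7 of the 876 mature miRNAs listed in any library. All libraries came from serum of male and female 129/SVj mice aged 2 to 9 months, without disease, and no genotype was altered. The labels name 3 serum pools (A, B and C), whereas the protocol text describes 200 µl aliquots of a pool of 3 mice, so the p-values measure the spread between these libraries, which may be technical. Every pool entered 3 arms: control RNA was not depleted, beads RNA was cleared of 5′ tRNA-half fragments with biotinylated DNA probes caught on streptavidin beads, and RNase H RNA was treated with complementary DNA probes and an enzyme that cuts RNA paired with DNA. The comparison asks whether each depletion protocol left these miRNAs at the same level relative to other miRNAs. Both protocols add handling, such as ethanol precipitation, that the paper does not describe for control RNA. Removal of tRNA fragments was not tested apart from this handling.

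A miRNA guides its protein complex to messenger RNAs mainly through its seed, bases 2 to 8 from the 5′ end, and lowers the output of those messages. miR-10 genes lie within the Hox gene clusters, which pattern the body axis, and some Hox messages are miR-10 targets. miR-100 is among the most widely conserved animal miRNAs, the miR-99/100 miRNAs are known to repress the kinase mTOR, and miR-125 is the vertebrate relative of lin-4, the first miRNA described in the worm. miR-99/100, let-7 and miR-125 genes stand together in clusters on several chromosomes.

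The mature sequences are shown because both the seed groups and the separation of near-identical members rest on them. They are RefSeq's (GRCm38.p6), all 7 members matched by name, and capitals mark the seed.
miR-10a-5p: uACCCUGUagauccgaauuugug
miR-10b-5p: uACCCUGUagaaccgaauuugug
miR-99a-5p: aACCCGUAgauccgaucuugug
miR-99b-5p: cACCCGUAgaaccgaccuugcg
miR-100-5p: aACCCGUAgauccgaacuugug
miR-125a-5p: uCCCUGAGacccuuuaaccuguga
miR-125b-5p: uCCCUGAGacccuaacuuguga

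These fall into 3 seed groups. miR-10a-5p and miR-10b-5p differ by 1 base, U12A counted from 1 at the 5′ end, with the base of miR-10a-5p first. miR-99a-5p and miR-100-5p also differ by 1 base, U16A with the base of miR-99a-5p first, whereas miR-99b-5p differs from either at 4 positions. miR-125a-5p is 24 bases long and miR-125b-5p 22. They share their first 13 bases. The miR-10 and miR-99/100 sequences are close relatives offset by a single base: with the U at position 6 left out, miR-10a-5p is the same as miR-100-5p at 20 of 22 positions. No other mature miRNA of the RefSeq table carries the miR-99/100 or the miR-10 seed, and 3 others (miR-351-5p, miR-6367 and miR-6394) carry the miR-125 seed.

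The deposited counts come from reads of at least 15 bases that matched the genome without a mismatch. Every stretch of that length within miR-10a-5p or miR-10b-5p includes position 12, so a read lying within the mature sequence belongs to 1 of them. Of 36 such stretches of miR-99a-5p, 1 is shared with miR-100-5p, the first 15 bases.

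miR-10b-5p lies at chr2:74726074-74726096, within introns of Hoxd3 and Hoxd4, and miR-10a-5p at chr11:96317186-96317208, outside any gene, with Hoxb4 993 bp from its hairpin (GENCODE M21, GRCm38). miR-99b-5p (chr17:17830194-17830215) and miR-125a-5p (chr17:17830817-17830840) are 601 bases apart. The Mir99b hairpin is within introns of Spaca6, and the Mir125a hairpin overlaps an exon of a Spaca6 transcript. miR-99a-5p (chr16:77598940-77598961) lies 47317 bases from the miR-125b-5p of Mir125b-2 (chr16:77646279-77646300), both within introns of the non-coding gene Mir99ahg. miR-100-5p (chr9:41531437-41531458) lies 50481 bases from the miR-125b-5p of Mir125b-1 (chr9:41581940-41581961), both within introns of the non-coding gene 3110039I08Rik. All are on the plus strand. Counts of miR-125b-5p cannot be divided between Mir125b-1 and Mir125b-2.

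Control libraries held 205185 to 330676 miRNA counts, beads libraries 1822088 to 1995956 and RNase H libraries 1199 to 2040. Levels are given as CPM, the count of a miRNA scaled to 1000000 miRNA counts of its library, in the order of pools A, B and C. Mature miRNAs differ little in length and each read counts once, so no length scaling was used, but how well each miRNA was ligated, amplified and mapped was not measured. At these depths, 3 counts correspond to 9.07 to 14.6 CPM in control, at most 1.65 CPM in beads and 1471 to 2502 CPM in RNase H libraries. miR-16-5p, which the study takes as abundant in mouse serum, was at 136422 ± 1663 CPM in control, 107396 ± 1430 in beads and 93592 ± 26216 in RNase H libraries (SD, n = 3). Serum RNA comes from many tissues, and a level in serum does not separate the number of releasing cells from the RNA released per cell. This limit concerns the levels and not the differences between arms, since the paper states that fractions of each RNA sample went to the 3 arms.

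Together the 7 miRNAs made up 8.25% ± 0.200 (SD, n = 3) of all miRNA counts in control libraries. Nearly all of this was miR-10: the miR-10 seed group held 93.9% ± 0.155 of their counts, the miR-125 group 4.02% ± 0.168 and the miR-99/100 group 2.11% ± 0.0582 (SD, n = 3). After depletion with beads they made up 7.76% ± 0.314 of miRNA counts, and after RNase H 6.61% ± 1.27 (SD, n = 3). Of the members' counts, miR-10 then held 93.3% ± 0.673 in beads and 91.1% ± 2.89 in RNase H libraries, and miR-125 held 4.72% ± 0.502 and 5.54% ± 0.703 (SD, n = 3). miR-99/100 held 1.99% ± 0.257 after beads, and 6.67, 3.40 and 0% in the 3 RNase H libraries, which rest on 12 counts in all. Neither the sum over the members nor its division was tested.

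miR-10b-5p, known for promoting invasion in breast cancer models, was the most abundant member in every library. It stood at 51558, 49725 and 48268 CPM in control libraries, which is 4.99% ± 0.165 (SD, n = 3) of all miRNA counts. It ranked 6th or 7th among all miRNAs there. In beads libraries it stood at 44406, 44750 and 48196 CPM and ranked 7th in each. All 3 beads values lay below all 3 control values, with pool C of the beads group only just below pool C of the control. miR-10a-5p, which is known to restrain inflammatory signalling in endothelium, stood at 27780, 27668 and 27451 CPM in control and at 25846, 25974 and 28034 CPM in beads libraries. These groups overlapped, as pool C after beads was the highest of the 6.

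miR-125a-5p, a regulator of blood stem cell number, followed at a level 11.1 times lower than miR-10a-5p. It stood at 2729, 2362 and 2360 CPM in control and at 2836, 2315 and 2505 CPM in beads libraries. In both groups pool A was the highest. Its cluster partner miR-99b-5p stood at 1418, 1322 and 1379 CPM in control and at 1280, 1261 and 1099 CPM in beads libraries. The groups did not overlap, with beads below control.

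miR-125b-5p, which acts in blood development and is known to target the p53 message, stood at 838.3, 843.7 and 836.4 CPM in control libraries. The spread of these values, 0.455% of the mean, was smaller than the 6.75% that counting error alone would give at a mean of 219.7 counts. In beads libraries it stood at 1189, 1021 and 1116 CPM, all above the control libraries. miR-100-5p stood at 175.5, 223.8 and 201.0 CPM in control and at 187.9, 198.9 and 148.2 CPM in beads libraries, and miR-99a-5p at 160.8, 169.4 and 176.9 CPM against 167.7, 138.3 and 125.7 CPM. Control and beads libraries overlapped for both.

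**Figure D1:**
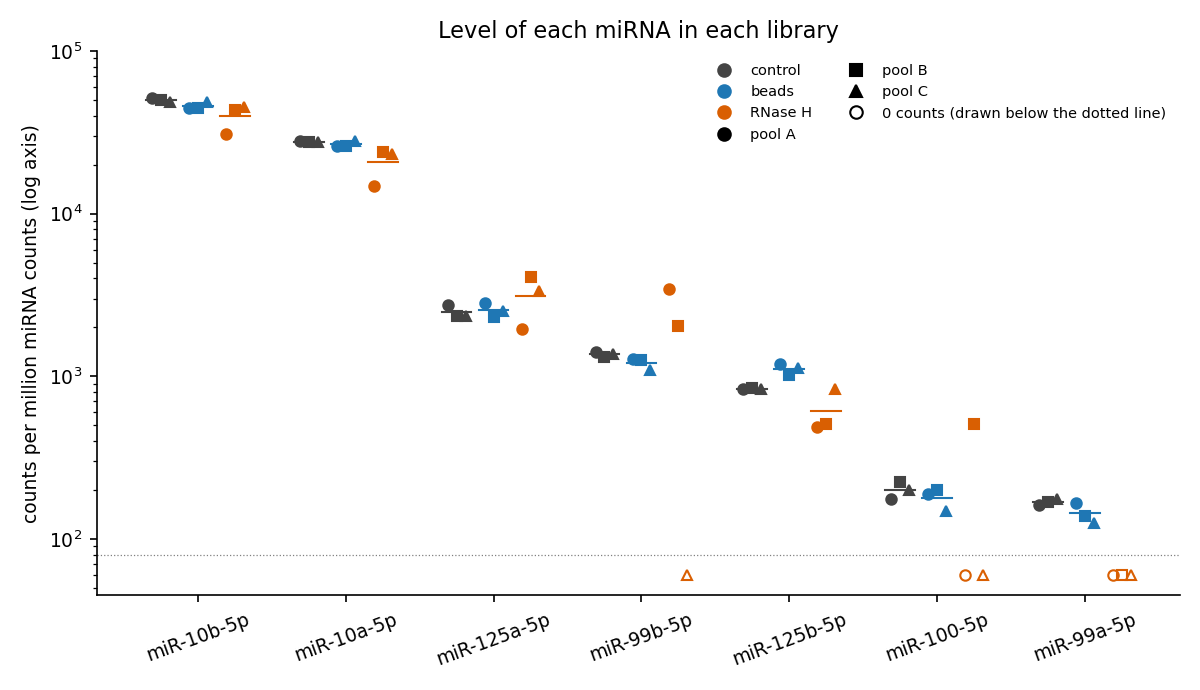
Level of each of the 7 miRNAs in each of the 9 libraries, in CPM of miRNA counts on a log axis, with colour for the group, symbol for the serum pool and a short line at the mean of 3 libraries where all held counts. Open symbols below the dotted line are libraries with 0 counts, and the miR-10 pair stands more than 10 times above every other member in control libraries.

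The order of the means in control libraries was miR-10b-5p, miR-10a-5p, miR-125a-5p, miR-99b-5p, miR-125b-5p, miR-100-5p and miR-99a-5p. Each neighbour in this order was separated from the next in all 3 libraries without overlap, except miR-100-5p and miR-99a-5p, whose ranges overlapped although miR-100-5p was the higher in 3 of 3 libraries. The order of the means was the same after beads. There, miR-99b-5p (1213 ± 99.6 CPM) and miR-125b-5p (1109 ± 84.3 CPM, SD, n = 3) overlapped as well, and miR-99b-5p was the higher in 2 of 3 libraries. In RNase H libraries the means kept the same order, but below miR-10a-5p no neighbours were separated.

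Depletion with beads raised the raw count of every member in every pool, along with that of miRNAs as a whole. These are gains in sequenced reads and not in RNA amount: by RT-qPCR, the paper found less miR-16 after either protocol than in control RNA. The sum of miRNA counts was 9.39 times that of the control in pool A, 6.04 times in pool B and 7.33 times in pool C. The raw count of miR-125b-5p was 13.3, 7.30 and 9.78 times that of the control in these pools, above the gain of all miRNAs in each. miR-10b-5p gained 8.09, 5.43 and 7.32 times, at or below it in each. The count of miR-99a-5p gained 9.79, 4.93 and 5.20 times, above all miRNAs in pool A and below them in pools B and C.

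**Figure D2:**
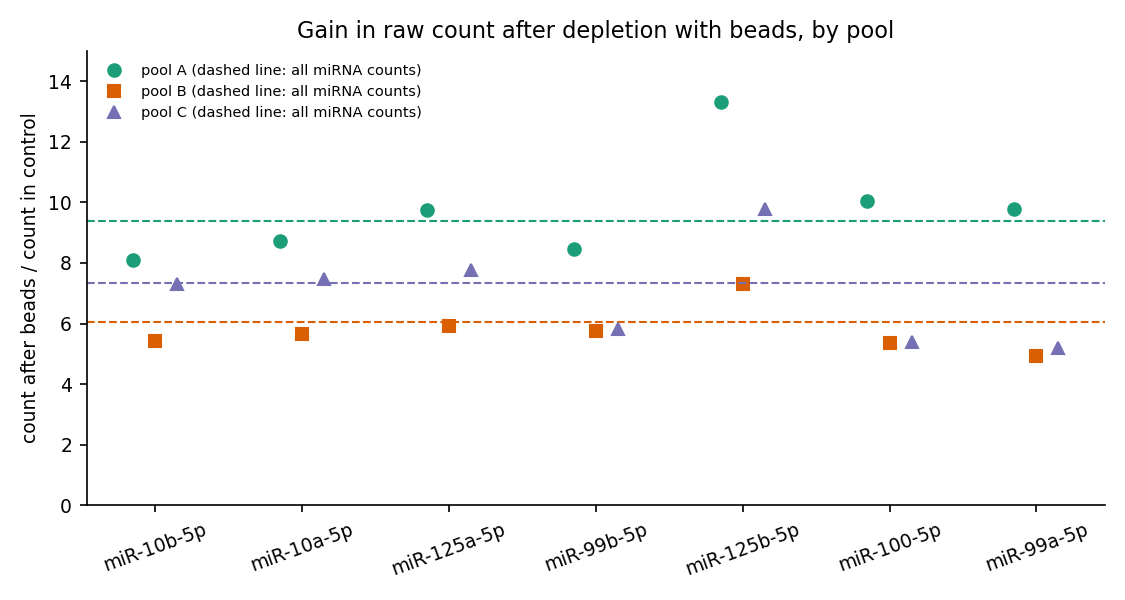
Raw count after depletion with beads divided by the raw count in the control library of the same pool, for each of the 7 miRNAs. Dashed lines give the same ratio for the sum of all miRNA counts in pools A (9.39), B (6.04) and C (7.33), and miR-125b-5p lies above its line in all 3 pools.

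Relative to all miRNAs, 1 of the 7 members changed after depletion with beads. In edgeR's quasi-likelihood test, 82 of 307 miRNAs tested had an adjusted p below 0.05, which is 26.7% (16.6% raised and 10.1% lowered). 1 raised member and 0 lowered members of 7 are no more than this background. miR-125b-5p rose by 0.41 ± 0.10 (SE) on the log2 scale, or 32.7%, with an adjusted p of 0.000319 (edgeR), and was higher in 3 of 3 pools. With any single library or pool left out its log2 fold change lay between 0.36 and 0.47, and it passed the threshold each time.

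The other 6 members did not pass. For miR-10b-5p, lower in 3 of 3 pools, the difference was -0.12 ± 0.056 (log2 fold change ± SE) with an edgeR adjusted p of 0.116. It passed without the beads library of pool C (edgeR adjusted p = 0.0454) and without pool C in both groups (edgeR adjusted p = 0.0114). For miR-99b-5p, also lower in 3 of 3 pools, it was -0.17 ± 0.094 with an edgeR adjusted p of 0.180. The values were -0.23 ± 0.17 for miR-99a-5p, -0.18 ± 0.16 for miR-100-5p, -0.05 ± 0.060 for miR-10a-5p and 0.05 ± 0.083 for miR-125a-5p (log2 fold change ± SE, edgeR adjusted p of 0.376, 0.477, 0.654 and 0.725). The median over the 7 members was -0.12, against 0.04 over all 307 miRNAs. Groups did not overlap for 3 of 7 members, 1 higher and 2 lower, against 38.8% of all miRNAs tested (22.8% higher and 16.0% lower). At an unadjusted p below 0.05 there were 2 members, miR-125b-5p and miR-10b-5p, against 36.8% of all miRNAs, and 5 of 7 members had a fitted change below 0, against 46.9%.

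The ratio between both members of the miR-125 seed group restates the rise of miR-125b-5p and is given as a description. Counts of miR-125a-5p were 3.26, 2.80 and 2.82 times those of miR-125b-5p in control libraries and 2.39, 2.27 and 2.24 times in beads libraries. All 3 beads ratios lay below all 3 control ratios. Such a ratio within a library does not depend on the library size. The ratios within a seed group, this one, miR-10b-5p over miR-10a-5p and miR-100-5p over miR-99a-5p, were added after the values had been seen and were not tested.

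Within the miR-10 group, which differs by a single base, counts of miR-10b-5p were 1.856, 1.797 and 1.758 times those of miR-10a-5p in control libraries and 1.718, 1.723 and 1.719 times in beads libraries. The beads ratios lay below those of the control and spread less (SD 0.00252 against 0.0492, n = 3). They also rest on more counts, which lowers counting error, and the difference in spread was not tested. miR-100-5p counts were 1.09, 1.32 and 1.14 times those of miR-99a-5p in control and 1.12, 1.44 and 1.18 times in beads libraries, with overlapping groups.

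Cluster partners were compared next, since miR-99 or miR-100 and miR-125 can be cut from neighbouring hairpins. In control libraries miR-99b-5p had 0.520, 0.560 and 0.584 counts for each count of miR-125a-5p, and in beads libraries 0.451, 0.545 and 0.439. The ratio was lower in 3 of 3 pools, by 0.22 on the log2 scale on average, and the groups overlapped (exact permutation test, two-sided, p of 0.2). The other partners were further apart: miR-99a-5p had 0.192, 0.201 and 0.212 counts for each count of miR-125b-5p in control and 0.141, 0.135 and 0.113 in beads libraries. For miR-100-5p over miR-125b-5p these ratios were 0.209, 0.265 and 0.240 against 0.158, 0.195 and 0.133.

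Both ratios with miR-125b-5p were lower in all beads libraries than in all control libraries, and the log2 ratio fell by 0.65 for miR-99a-5p and by 0.58 for miR-100-5p (exact permutation p of 0.1 each, 0.15 after Benjamini-Hochberg adjustment over 6 tests). A p of 0.1 is the smallest that 3 against 3 libraries allow, so no ratio could pass 0.05. Both ratios hold miR-125b-5p, whose rise is given above, so they are not results separate from it or from each other. As miR-125b-5p can come from 2 hairpins, neither ratio is that of a single transcript.

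**Figure D3:**
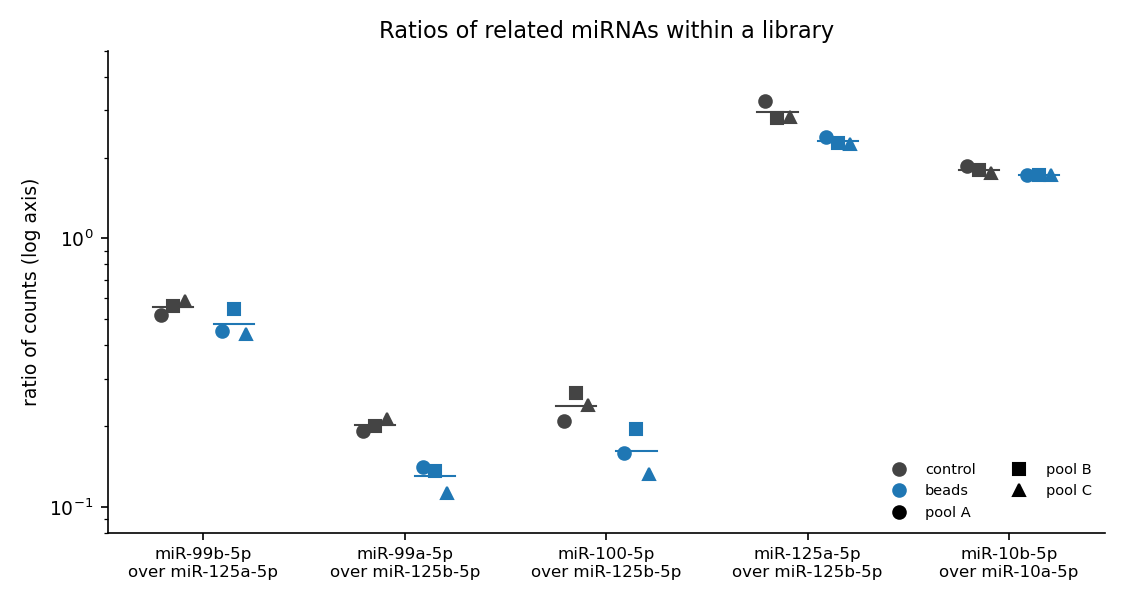
Ratios of counts of related miRNAs within each control and beads library on a log axis, with symbols for the serum pool and short lines at the mean of 3 libraries. The 3 ratios that involve miR-125b-5p show no overlap between the groups, and neither does miR-10b-5p over miR-10a-5p. For miR-99a-5p over miR-125b-5p, beads libraries lie at 0.113 to 0.141 against 0.192 to 0.212 in control libraries.

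In RNase H libraries the 7 members held 339 counts in all, of which 308 belonged to miR-10. miR-10b-5p had 63, 86 and 54 counts (30882, 43500 and 45038 CPM). At the share of its own control library it would have had 105.2, 98.3 and 57.9. miR-10a-5p had 30, 47 and 28 counts (14706, 23773 and 23353 CPM), where the control share gives 56.7, 54.7 and 32.9. For both, every RNase H library lay below every control library, and pool A was the lowest.

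Between RNase H and control libraries, 16 of 138 miRNAs tested passed in edgeR, or 11.6% (6.52% raised and 5.07% lowered), and none of the 7 members did. At an unadjusted p below 0.05, 2 members were found, miR-10a-5p and miR-10b-5p, against 23.9% of all miRNAs tested, and DESeq2 also called none of the 7. The difference was -0.56 ± 0.19 for miR-10a-5p and -0.45 ± 0.18 for miR-10b-5p (log2 fold change ± SE, edgeR adjusted p of 0.0679 and 0.127). Each was lower in 3 of 3 pools. With pool B left out, or in a joint fit of all 9 libraries, both passed (edgeR adjusted p of 0.000191 and 0.000448, and of 0.0159 and 0.0207), and with pool A left out they did not (0.673 and 0.697). Over all fits without 1 library or pool, the log2 fold change ran from -0.88 to -0.21 for miR-10a-5p and from -0.73 to -0.10 for miR-10b-5p. Groups did not overlap for 4 of 7 members, all lower and 1 of them, miR-99a-5p, with no counts, against 40.6% of the miRNAs tested (28.3% lower). Of these 4, miR-125b-5p had 1 count in each RNase H library. The median log2 fold change was -0.45 over the members and -0.19 over all 138 miRNAs. With miR-99a-5p set at the mean of the upper limits of the single libraries, the median over the members was -0.20.

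The less abundant members were near the limit of detection after RNase H. miR-125a-5p had 4, 8 and 4 counts, close to the 5.57, 4.67 and 2.83 that the control shares give, and the fitted difference was 0.19 ± 0.37 on the log2 scale, with an edgeR adjusted p of 0.850. miR-99b-5p had 7, 4 and 0 counts where the control shares give 2.89, 2.61 and 1.65. It was thus higher in pools A and B, with 0.50 ± 0.50 SE on the log2 scale over all pools (edgeR adjusted p = 0.560). miR-125b-5p had 1 count in each library where 1.71, 1.67 and 1.00 would be found at the control share (-0.66 ± 0.72 on the log2 scale, with an edgeR adjusted p of 0.665).

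miR-100-5p had a single count, in pool B, and miR-99a-5p had none in any RNase H library. A count of 0 allows up to 1471, 1517 and 2502 CPM in pools A, B and C, far above the 169.0 ± 8.05 CPM (SD, n = 3) of miR-99a-5p in control libraries, and 0.875 counts in all would be found at its control share. A fall of either was not detectable at this depth, nor, within a single library, was a rise to a level under its limit. The 3 libraries together would set a lower limit, which was not computed. The ratios of cluster partners in these libraries rest on 0 to 8 counts, and for those with miR-125b-5p the value is set by the pseudocount, so none is read as a change.

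**Figure D4:**
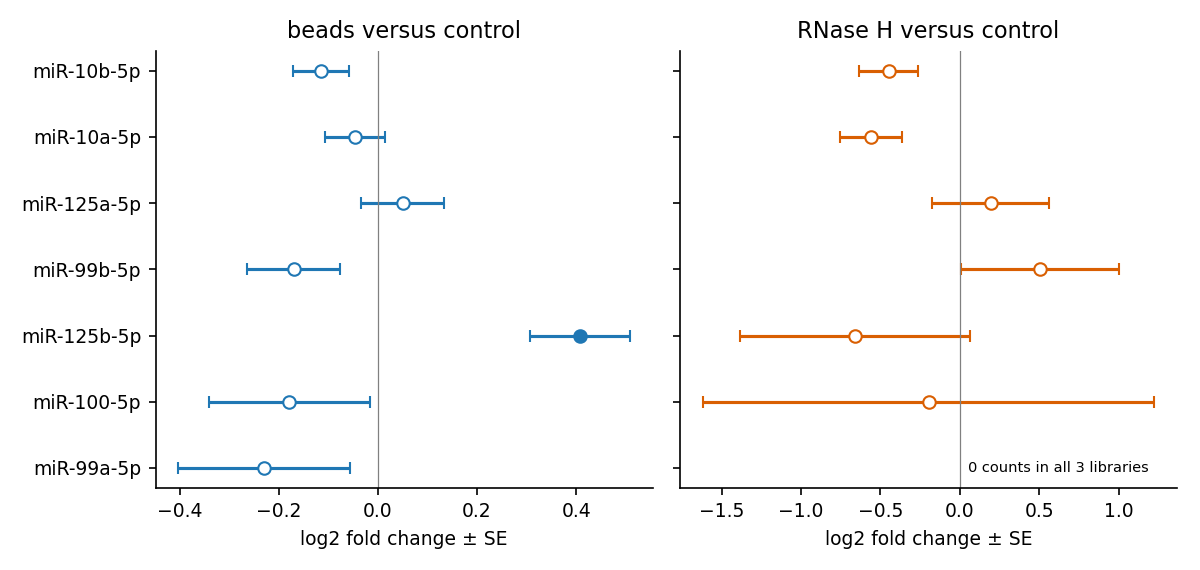
Log2 fold change of each of the 7 miRNAs relative to all miRNAs after depletion with beads and with RNase H, with the standard error as bars (edgeR, 3 against 3 libraries). The filled point, miR-125b-5p after beads at 0.41, is the single value with an adjusted p below 0.05, and the bars are wider on the right, where the libraries held few counts.

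When all counts of both files of a library were used as its size, in place of miRNA counts, the direction of several members turned, since that scale also counts the other small RNA classes. The 7 members together made up 0.495% ± 0.0702 of all annotated counts in control libraries, 4.65% ± 0.656 in beads libraries and 0.162% ± 0.131 in RNase H libraries (SD, n = 3). On this scale each of the 7 members rose after beads, with log2 fold changes of 3.08 to 3.71, as did all 332 miRNAs tested, whose median was 3.37. miR-125b-5p (3.71) lay above that median and the other 6 members, at 3.08 to 3.366, at or below it. After RNase H the median of all miRNAs on this scale was -1.70. The summed level was 9.40 times that of the control after beads and 0.328 times after RNase H. All counts came to 3904095 to 4920457 in control, 2796718 to 3538246 in beads and 47252 to 160581 in RNase H libraries. The paper, however, gives a higher mean of mapped reads for beads than for control libraries. All counts therefore leave out mapped reads, more so in depleted than in control libraries. The size of these shares and ratios depends on which reads were counted.

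The patterns over the 9 libraries were also compared with those of 38 other miRNAs that had a mean of at least 5 counts in each group. The miRNA most like miR-10a-5p and miR-10b-5p was the same one, MIMAT0000215, whose name the files do not give, with Pearson's r of 0.989 and 0.960 across the 9 libraries. These are the highest of 38 values, whose medians were 0.436 and 0.365, and the next highest were 0.916 and 0.950. The other 5 members, with 0 to 8 counts in an RNase H library, are not compared in this way. All points share the same 9 libraries and their depths, and no test was made.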

How the data were processed

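Small RNA libraries of 9 serum RNA samples (3 pools in 3 arms) were analysed from 18 files. The authors trimmed reads with cutadapt 1.8.1, kept reads of at least 15 bases, mapped them to GRCm38/mm10 with Bowtie 1.1.2 without mismatches and annotated them with miRBase. The deposited values are raw counts per mature miRNA and, in a separate file, per distinct sequence of other small RNA classes, which were used only for the total of a library. A miR-10b-5p read misread at position 12 can match miR-10a-5p and be counted there, and a read with an untemplated end may not map.

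miRNA counts were tested with edgeR 4.0.16 (R 4.3.3) by TMM normalization, filterByExpr, the quasi-likelihood test and Benjamini-Hochberg adjustment over all miRNAs tested, with only the groups compared in a fit and a threshold of 0.05. The SE is the log2 fold change divided by the root of the test statistic. DESeq2 1.42.0 was an alternative. The fits were tested on simulated data. Ratios used log2 of counts with a pseudocount of 0.5 and a two-sided exact permutation test over 20 assignments (Python 3.11.15). Limits of 3 counts cover counting error only, since PCR reads carry no molecular identifiers. The chi-square per degree of freedom between libraries of a group was 1.37 to 20.5, above counting noise, which separate libraries from 1 serum pool can also give.

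The labels give the pool shared by libraries of different groups, which pairs them. Deviations from the group mean correlated between libraries of a pool by 0.092, 0.217 and -0.148 (pools A, B and C) for beads and control, and by -0.047, -0.290 and 0.305 for RNase H and control.

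The members, the lists and the tests were chosen with earlier results of these data known. All 7 members are named. Lists of the opposite strands of the same hairpins, of let-7 partners, of other Hox cluster miRNAs, of seed mates and of cell type markers were planned by name. No table used here pairs their names with the identifiers in the files, so they are not analysed here, except miR-16-5p, whose identifier the study gives.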

Additional observations from a re-analysis of the deposited data

How the results depend on the processing

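The rise of miR-125b-5p after beads passed the threshold in the 14 alternatives that scale to miRNA counts, with a log2 fold change of 0.36 to 0.47 (edgeR or DESeq2 adjusted p of 0.000139 to 0.0122). With all counts as library size it passed too, but so did all 332 miRNAs tested. The number of miRNAs called after beads was 65 to 76 with a library or pool left out and moved to 332 with all counts as library size (332 raised and 0 lowered, against 51 and 31). After RNase H it was 4 to 30 with a library or pool left out, 27 with DESeq2 (21 raised and 6 lowered, against 9 and 7) and 51 with all counts (4 raised and 47 lowered). The number tested changed too: without 1 control library it was 33 or 34, against 138 with all 6 libraries. With the replicate block for the serum pool, 91 miRNAs passed for beads against 82, and 12 against 16 for RNase H. It changed no call of a member. With all counts as library size the log2 fold changes after beads turned to 3.08 (miR-99a-5p), 3.16 (miR-99b-5p), 3.15 (miR-100-5p), 3.27 (miR-10a-5p) and 3.20 (miR-10b-5p), and the summed level of the members moved to 9.40 times the control for beads and to 0.328 times for RNase H. After RNase H this scale turned miR-99b-5p to -1.10 and miR-125a-5p to -1.25, and miR-10a-5p, miR-10b-5p and miR-125b-5p passed as falls (edgeR adjusted p of 0.0284, 0.0430 and 0.0331). With DESeq2, miR-100-5p turned to 0.17. With a library or pool left out, direction turned for miR-125a-5p after beads (range -0.0227 to 0.12) and, after RNase H, for miR-99b-5p (-0.20 to 0.82), miR-100-5p (-8.00 to 0.57) and miR-125a-5p (-0.31 to 0.69). Without 1 control library, 5 members did not pass the filter of the RNase H fit. The changes in log2 ratio of cluster partners (beads minus control) kept their direction, at -0.31 to -0.12 (miR-99b-5p over miR-125a-5p), -0.75 to -0.52 (miR-99a-5p over miR-125b-5p) and -0.66 to -0.43 (miR-100-5p over miR-125b-5p) with a pool left out. For RNase H the change of the first was -0.27 and turned to 0.0199 with a pseudocount of 1 and to 0.33 with counts summed over the group (-1.24 to 0.80 with a pool left out). The second was 0.71 and turned to -0.50 with summed counts (0.68 to 0.75 with a pool left out), and the third was 1.01 (0.56 to 1.28 with a pool left out). For these few counts the pseudocount sets the value. The cause of the other changes was not tested.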
